A study of Schizosaccharomyces pombe with 261 samples.

Results

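Pcr1 is a small bZIP transcription factor of fission yeast (Schizosaccharomyces pombe), and the comparison described here is that of unheated cells lacking pcr1 with unheated wild-type (WT) cells, by mRNA sequencing. The libraries were chosen by their labels: the 3 pcr1Δ libraries at 0 min of the series called RNA3, set against the 6 WT libraries at 0 min of the series called RNA1 (3 libraries) and RNA2 (3 libraries), which is 9 of the 39 mRNA-seq libraries and of the 261 samples of the whole study. All strains, WT included, were of the h+ (P) mating type and carried the mutant alleles ade6-DN/N, leu1-32 and also ura4-DS/E. They all carried reporters beside a centromere too, imr1L::ura4+ together with otr1R::ade6+. The mutant carried pcr1{delta}::KanMX6 in addition, and the 2 other mutants of series RNA3 that are used below carried atf1{delta}::KanMX6 or clr4{delta}::NatMX6 (3 libraries each at 0 min). Cells were in mid-log growth in YES medium at 30 °C and had no heat treatment, and polyA RNA libraries were made from hot-phenol RNA. Nothing in the labels ties replicates to separate cultures or a strain to more than 1 clone, so p-values measure only the spread between these libraries, which may be technical. RNA3 holds no WT library: the effect of the deletion and that of the series cannot be told apart, and a gene is therefore called only where pcr1Δ differed from the mean of both WT series (adjusted p under 0.05) and lay on the same side of each.

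Pcr1 acts as a heterodimer with Atf1, the bZIP factor that the stress MAP kinase Sty1 phosphorylates. The pair binds sites like the cAMP response element of animals, and it is known for the induction of stress genes, for the expression of fbp1 and ste11 when nutrients run out, and for a part in nucleating heterochromatin at the silent mating-type region. Atf1 is known to sit at many of its sites in unstressed cells as well.

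The element's core, TGACGT or its complement ACGTCA on either strand, was looked for from 250 bases before to 50 bases after the start of each gene in the RefSeq annotation of build ASM294v3. It occurred in 295 of 4972 windows of tested protein-coding genes (5.93%), in 20 of 74 windows of genes that were at least 2-fold lower in pcr1Δ (27%) and in 18 of 116 windows of genes that were at least 2-fold higher (15.5%). The longer form ATGACGT, which contains the core, was in 1.55% of all windows, in 14.9% of those of the lower genes and in 6.03% of those of the higher genes. The gene positions the authors deposited put many starts elsewhere. Among the 1625 genes whose start has a coordinate within 25 bases in both annotations, the core was in 5.6% of windows, in 3 of 28 windows of the lower genes (10.7%) and in 7 of 32 of the higher genes (21.9%), so the order of the lower and higher genes in these shares turns with the choice of genes; this restriction was chosen after the values were seen. Of 114 coding genes named by the rule that have a window, 12 held the core. Those called lower were SPCC569.03, SPBC2A9.02, mae2, gpd1, grx1, hhf3, hht3 and hta1, and those called higher were atf1, srk1, ntp1 and isp3. The deposited positions start SPCC569.03 124 bases, SPBC2A9.02 390 bases and hht3 92 bases further upstream, so the copies nearest to their RefSeq starts lie inside the genes as deposited. No copy of these letters was found in the windows of gpx1, hsp9, fbp1 or map3, which says nothing about binding elsewhere. A match is a description of the letters, not a bound site. These 5 windows, with the core in capitals, are shown because they belong to genes with large or central changes in each direction and hold a copy upstream of the start in both annotations. mae2 (chrIII:277213-277512, minus strand) and gpd1 (chrII:4035316-4035615, plus strand) fell, while atf1 (chrII:1545967-1546266, plus strand), srk1 (chrIII:1301687-1301986, plus strand) and ntp1 (chrII:206331-206630, plus strand) rose.
mae2: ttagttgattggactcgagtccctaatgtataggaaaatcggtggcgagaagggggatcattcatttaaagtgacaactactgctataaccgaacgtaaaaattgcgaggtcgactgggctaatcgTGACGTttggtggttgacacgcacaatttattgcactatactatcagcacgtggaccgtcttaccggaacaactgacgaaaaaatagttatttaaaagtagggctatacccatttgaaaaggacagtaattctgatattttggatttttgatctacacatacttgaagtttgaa
gpd1: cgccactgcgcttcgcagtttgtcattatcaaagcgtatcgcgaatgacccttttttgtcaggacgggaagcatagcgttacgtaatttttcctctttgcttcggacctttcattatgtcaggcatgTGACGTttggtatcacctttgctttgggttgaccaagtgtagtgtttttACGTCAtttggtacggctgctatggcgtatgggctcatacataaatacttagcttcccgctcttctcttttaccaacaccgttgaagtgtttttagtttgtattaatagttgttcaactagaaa
atf1: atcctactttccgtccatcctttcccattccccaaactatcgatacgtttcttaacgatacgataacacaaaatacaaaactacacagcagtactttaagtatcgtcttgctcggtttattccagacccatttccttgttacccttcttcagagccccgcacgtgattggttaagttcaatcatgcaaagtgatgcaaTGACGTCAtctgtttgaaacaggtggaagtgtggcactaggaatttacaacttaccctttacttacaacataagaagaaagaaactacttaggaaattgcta
srk1: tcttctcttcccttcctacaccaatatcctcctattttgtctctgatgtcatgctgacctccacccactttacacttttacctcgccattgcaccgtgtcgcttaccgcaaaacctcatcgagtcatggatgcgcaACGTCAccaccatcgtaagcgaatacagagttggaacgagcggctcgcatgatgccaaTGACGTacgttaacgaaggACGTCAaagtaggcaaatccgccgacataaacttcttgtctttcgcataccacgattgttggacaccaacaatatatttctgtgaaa
ntp1: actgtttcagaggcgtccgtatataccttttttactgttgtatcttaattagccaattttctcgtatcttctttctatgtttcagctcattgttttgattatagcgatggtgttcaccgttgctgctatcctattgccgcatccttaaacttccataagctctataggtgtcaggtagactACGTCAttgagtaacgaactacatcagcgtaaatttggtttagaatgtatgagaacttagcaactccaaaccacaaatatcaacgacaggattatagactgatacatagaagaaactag
In atf1 the 8 capitals read TGACGTCA, which holds the core on each strand in overlapping letters and occurred in 14 of the 4972 windows (0.282%). The srk1 window held 3 copies and the gpd1 window 2. The copy nearest to the RefSeq start lay 124 bases before it in mae2, 74 in gpd1, 50 in atf1, 37 in srk1 and 69 in ntp1. The deposited positions start mae2 78, atf1 23 and ntp1 1 bases further upstream, srk1 at the same base and gpd1 14 bases downstream.

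The pcr1 transcript itself was lower in the mutant but not absent, with 566, 513 and 482 counts in its 3 libraries. It had 47.3, 42.04 and 37.6 CPM (counts scaled to a common library size by edgeR) in the pcr1Δ libraries, against 53.95, 67.6 and 70.9 CPM in WT of RNA1 and 86.3, 72.8 and 56.01 CPM in WT of RNA2, and no mutant library reached a WT library. Its log2 fold change was -0.68 ± 0.15 (standard error; edgeR quasi-likelihood test, adjusted p = 0.000385). The files give a single count per gene, and the coding part makes up 516 of the 1459 bases of the annotated transcript (35.4%). Which part of the transcript the counted reads came from was not tested. The count of pcr1 thus ran in the direction of the pcr1Δ label but does not by itself bear out a deletion. The partner gene atf1 rose, with 415, 336 and 341 CPM in pcr1Δ, against 118, 127 and 146 CPM in WT of RNA1 and 206, 223 and 212 CPM in WT of RNA2. Every pcr1Δ library lay above every WT library, and the log2 fold change was 1.13 ± 0.10 (adjusted p = 2.05e-10); it was 1.48 against RNA1 and 0.77 against RNA2, and the WT series differed from each other as well. The gene for the histone methyltransferase Clr4 had 41.3, 46.5 and 42.5 CPM in pcr1Δ, against 49.99, 49.98 and 53.3 CPM in RNA1 and 44.7, 43.3 and 43.1 CPM in RNA2, and was not called. In the libraries labelled clr4Δ, however, clr4 stood at 179.5, 173 and 172 CPM, above every other unheated library, so the gene's own count does not bear out that label. Other genes stood apart in the same libraries: tlh2, a helicase gene near the right end of chromosome II, averaged 0.918 CPM in pcr1Δ, against 56.2 CPM in the libraries labelled clr4Δ, 0.765 CPM in RNA1 and 0.605 CPM in RNA2. The nearby SPBCPT2R1.07c had 0 counts in pcr1Δ and 256 over the 3 libraries labelled clr4Δ. ura4, carried as a reporter beside a centromere, had 64.5, 68.7 and 71.9 CPM in pcr1Δ and 164, 185 and 201 CPM in the libraries labelled clr4Δ. Strains without Clr4 are known for loss of silencing at such places. The values of these genes thus run the way the label says while the clr4 count does not, and "labelled clr4Δ" is used below.

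Of 6172 genes tested, 1145 were called higher in pcr1Δ (18.6%) and 1166 lower (18.9%), together 2311 (37.4%). Of these, 234 of the higher and 177 of the lower genes differed at least 2-fold, 411 in all, and the remainder by less. A stricter rule asked for an adjusted p under 0.05 against each WT series by itself; 1270 genes met it (20.6%), 618 higher and 652 lower. Of all genes 28.5% (1756) had no overlap between the 3 mutant and the 6 WT libraries. The WT series also differed from each other, in 1457 genes (23.6%), and 83 of the 411 genes with a 2-fold change were among them. Within series RNA3, 2678 genes differed between pcr1Δ and the libraries labelled clr4Δ (43.4%), and 1025 genes (16.6%) were called in the same direction against WT of RNA1, WT of RNA2 and the libraries labelled clr4Δ; the last group is given below as called in all 3 comparisons. They comprise 508 higher and 517 lower genes (8.23% and 8.38% of all genes tested), and 309 of the 411 genes with a 2-fold change. Those 2 shares are the background for every count in all 3 comparisons given below. Within the same series only 87 genes (1.41%) differed between pcr1Δ and the libraries labelled atf1Δ, 10 of them higher and 77 lower in pcr1Δ. That count fell to 41 when pcr1Δ replicate 3 was left out and was 145 when the 2 groups were fitted alone. Heat itself is outside the comparison, but the difference between pcr1Δ and WT changed between 0 and 5 min at 37.5 °C in 444 genes (7.19%), downward in 395 and upward in 49. In bulk RNA, fewer cells of a kind and less RNA per cell cannot be told apart.

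**Figure D1:**
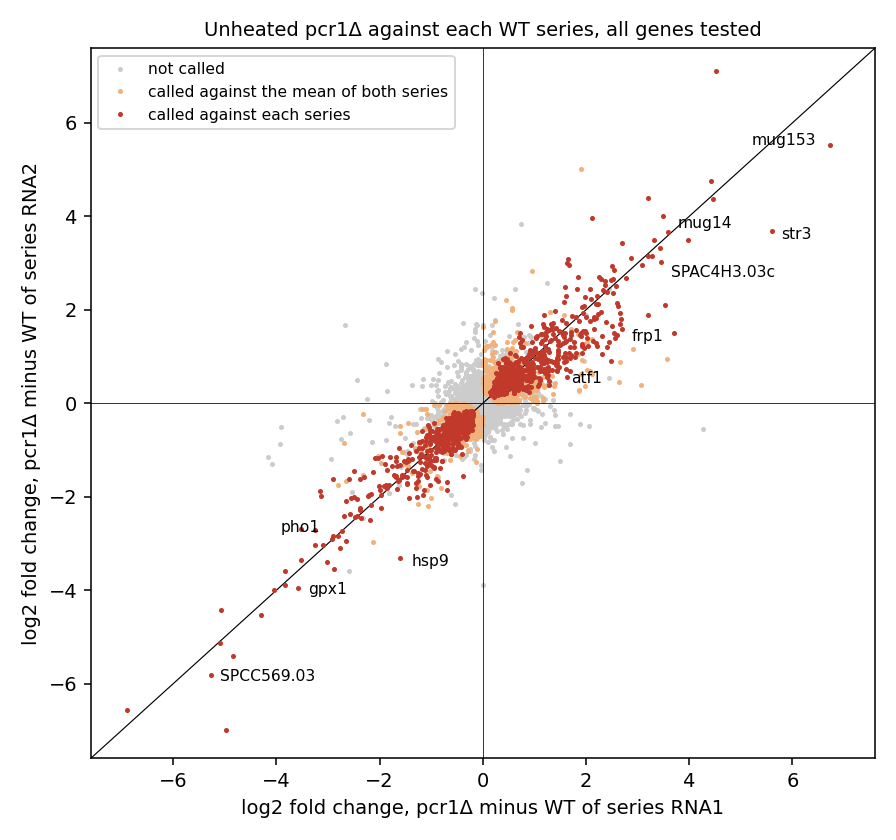
Each point is a gene (6172): the log2 fold change of unheated pcr1Δ against WT of series RNA1 on the x axis and against WT of series RNA2 on the y axis, with the line of equality. The 1270 red genes were called against each series, orange genes only against the mean of both, and grey genes were not called. gpx1, pho1 and mug14 lie near the line, while str3, frp1 and atf1 lie below it on the rising side. The axes share the pcr1Δ libraries, so the spread along the line is no measure of agreement.

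The depth of the 9 libraries was 11682776 to 12552650 counts in genes in pcr1Δ, against 8693850 to 11348673 in WT of RNA1 and 8714493 to 10228142 in WT of RNA2. The 10 most abundant genes took 8.73 to 9.09% of counts in pcr1Δ, 8.45 to 9.79% in WT of RNA1 and 6.5 to 6.73% in WT of RNA2. Reads mapping to several places came to 14.1 to 17% in pcr1Δ, 9.04 to 17.3% in RNA1 and 9.4 to 10.8% in RNA2. In the libraries labelled clr4Δ the 10 most abundant genes took 6.56 to 7.15% of counts, and reads mapping to several places came to 8.62 to 11.9%. By both measures these libraries were nearer to WT of RNA2 than to pcr1Δ, though they share the RNA3 label with pcr1Δ. In the libraries labelled atf1Δ, also of RNA3, the 10 most abundant genes took 8.48, 9.47 and 9.08% of counts. Reads mapping to several places came there to 11.9, 14.5 and 14.6%. By both measures the atf1Δ group was closer to pcr1Δ than the clr4Δ group was. Whether calls against either group, and the difference in their number, are free of an effect of the series or of such library traits was not tested. The P-type genes map1, map2, map3, map4 and sxa1 summed to 687 to 802 CPM in pcr1Δ, 564 to 581 CPM in RNA1 and 630 to 721 CPM in RNA2. The M-type list of 7 genes summed to 129 to 133 CPM in pcr1Δ, 117 to 132 CPM in RNA1 and 125 to 141 CPM in RNA2. Within it the genes of the M-factor itself, mfm1, mfm2 and mfm3, were at most 3.16 CPM in any of the 9 libraries, while mam1, mam3 and sxa2 were at 15.2 CPM or more in all 9. Replicate libraries were further apart than counting error allows in each pair, and none was treated as a repeat deposit.

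Some genes of oxidative and osmotic defence were among the large falls, but the oxidative stress list went both ways. Of its 24 tested members 6 fell (25%) and 5 rose (20.8%), near the 18.9% and 18.6% of all genes. Among those that rose were srx1 (1.71) and tpx1 (1.54), on the log2 scale. Here and below, lists and their members were chosen with earlier results of these data known. A share above that of all genes is therefore a description and no independent test. The largest changes named here and below were taken from called genes with no overlap between the pcr1Δ and WT libraries, so for them that separation is part of the choice and no result. The largest fall of a coding gene with at least 10 CPM on average was SPCC569.03 (chromosome III, 2429987 to 2431575, minus strand), an uncharacterised protein gene, with 0.334, 0.492 and 0.156 CPM in pcr1Δ, against 14.5, 13.8 and 10.7 CPM in WT of RNA1 and 17.9, 23.9 and 15.2 CPM in WT of RNA2. It was nearly silent in each mutant library and the groups were far apart, 46.7-fold on the fitted scale (log2 -5.55 ± 0.36, edgeR adjusted p = 3.4e-14). The glutathione peroxidase gene gpx1 (SPBC32F12.03c, chromosome II, 2788863 to 2789614, minus strand), whose enzyme removes hydrogen peroxide, had 9.02, 8.03 and 9.68 CPM in pcr1Δ, against 104, 105 and 112 CPM in RNA1 and 158, 139.6 and 117 CPM in RNA2. Its fall of 13.6-fold (log2 -3.77 ± 0.19, adjusted p = 3.21e-17) was of like size against RNA1 (-3.58), RNA2 (-3.95) and the libraries labelled clr4Δ (-4.25). The gene gpd1 (SPBC215.05, chromosome II, 4035580 to 4037342, plus strand) encodes the glycerol-3-phosphate dehydrogenase that makes the osmolyte glycerol, and it had 344, 218 and 231 CPM in pcr1Δ, against 714, 805 and 603 CPM in RNA1 and 1109, 1071 and 1071 CPM in RNA2. All mutant libraries lay below all WT libraries (log2 -1.73 ± 0.15, adjusted p = 2.08e-11), with the RNA2 libraries the highest. The glutaredoxin gene grx1, the quinone reductase gene obr1 and the catalase gene ctt1 fell as well, by 1.56, 1.79 and 1.17 on the log2 scale.

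The heat shock gene hsp9 (SPAP8A3.04c, chromosome I, 5319957 to 5320676, minus strand) fell, but its WT level depended on the library. It had 33.8, 23.6 and 21.5 CPM in pcr1Δ, against 71.4, 98.4 and 69.4 CPM in WT of RNA1 and 506, 172 and 103 CPM in WT of RNA2. No mutant library overlapped WT, and the log2 fold change was -1.60 against RNA1 and -3.31 against RNA2 (-2.46 ± 0.33 against both, adjusted p = 3.53e-07). The acid phosphatase gene pho1 (SPBP4G3.02, chromosome II, 4446373 to 4449053, plus strand), the secreted enzyme that frees phosphate outside the cell, had 63.9, 57.03 and 54.8 CPM in pcr1Δ, against 211, 519 and 580.1 CPM in RNA1 and 541, 534 and 179.8 CPM in RNA2. The mutant libraries were close together and below all WT libraries, of which replicate 1 of RNA1 and replicate 3 of RNA2 were the lowest (log2 -2.87 ± 0.48, adjusted p = 1.43e-05). The same 2 WT libraries were also the lowest for abp2, cnp3 and the stress factor gene hsr1. The gene abp2, for a protein that binds replication origins, had 27.8, 25.5 and 29.5 CPM in pcr1Δ, against 81.2, 153 and 212 CPM in RNA1 and 204, 161 and 75.9 CPM in RNA2. Its neighbour on chromosome II, cnp3, which encodes the centromere protein CENP-C, had 21.1, 20.98 and 19.4 CPM in pcr1Δ, against 48.6, 135 and 151 CPM in RNA1 and 113, 103 and 37.2 CPM in RNA2. Both were below every WT library in all 3 mutant libraries, with log2 fold changes of -2.42 ± 0.34 (adjusted p = 7.14e-07) and -2.24 ± 0.41 (adjusted p = 4.66e-05). What these WT libraries have in common was not tested.

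Other genes with large falls were mae2, fet4, fhn1, SPBC2A9.02 and SPAC2H10.01. mae2 (SPCC794.12c, chromosome III, 275261 to 277340, minus strand), the malic enzyme that turns malate into pyruvate, had 490.4, 470.2 and 446 CPM in pcr1Δ, against 1410.0, 1916 and 1747 CPM in RNA1 and 1832, 1596 and 1500.0 CPM in RNA2. The groups did not overlap (log2 -1.83 ± 0.13, adjusted p = 3.59e-13), and the malate permease gene mae1 fell by 1.00 on the log2 scale. fet4, an iron and zinc transporter gene, had 6.85, 5.49 and 5.38 CPM in pcr1Δ, against 27.7, 28.7 and 24.9 CPM in RNA1 and 23.8, 24.6 and 20.9 CPM in RNA2 (log2 -2.08 ± 0.15, adjusted p = 2.51e-13). fhn1, for a protein of the eisosome, a furrow in the plasma membrane, fell by 2.35 on the log2 scale. The gene SPBC2A9.02, of the NAD-dependent epimerase family, fell by 2.41, and SPAC2H10.01, annotated as a transcription factor, by 2.52. SPAC2H10.01 stood at 7.94, 7.13 and 5.23 CPM in pcr1Δ, against 43.6, 60.5 and 77.7 CPM in RNA1 and 32.7, 22.1 and 19.2 CPM in RNA2, so its WT level differed between the series too. The largest falls of non-coding RNAs were those of SPNCRNA.655 (log2 -2.29), SPNCRNA.863 (-1.84) and SPNCRNA.1461 (-1.63). SPNCRNA.863 matches Tf2 retrotransposon copies over 535 of its 1628 bases at 99.8% identity, so its value is uncertain. The other non-coding RNAs overlap coding genes on the opposite strand, and whether reads crossed strands there was not tested.

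**Figure D2:**
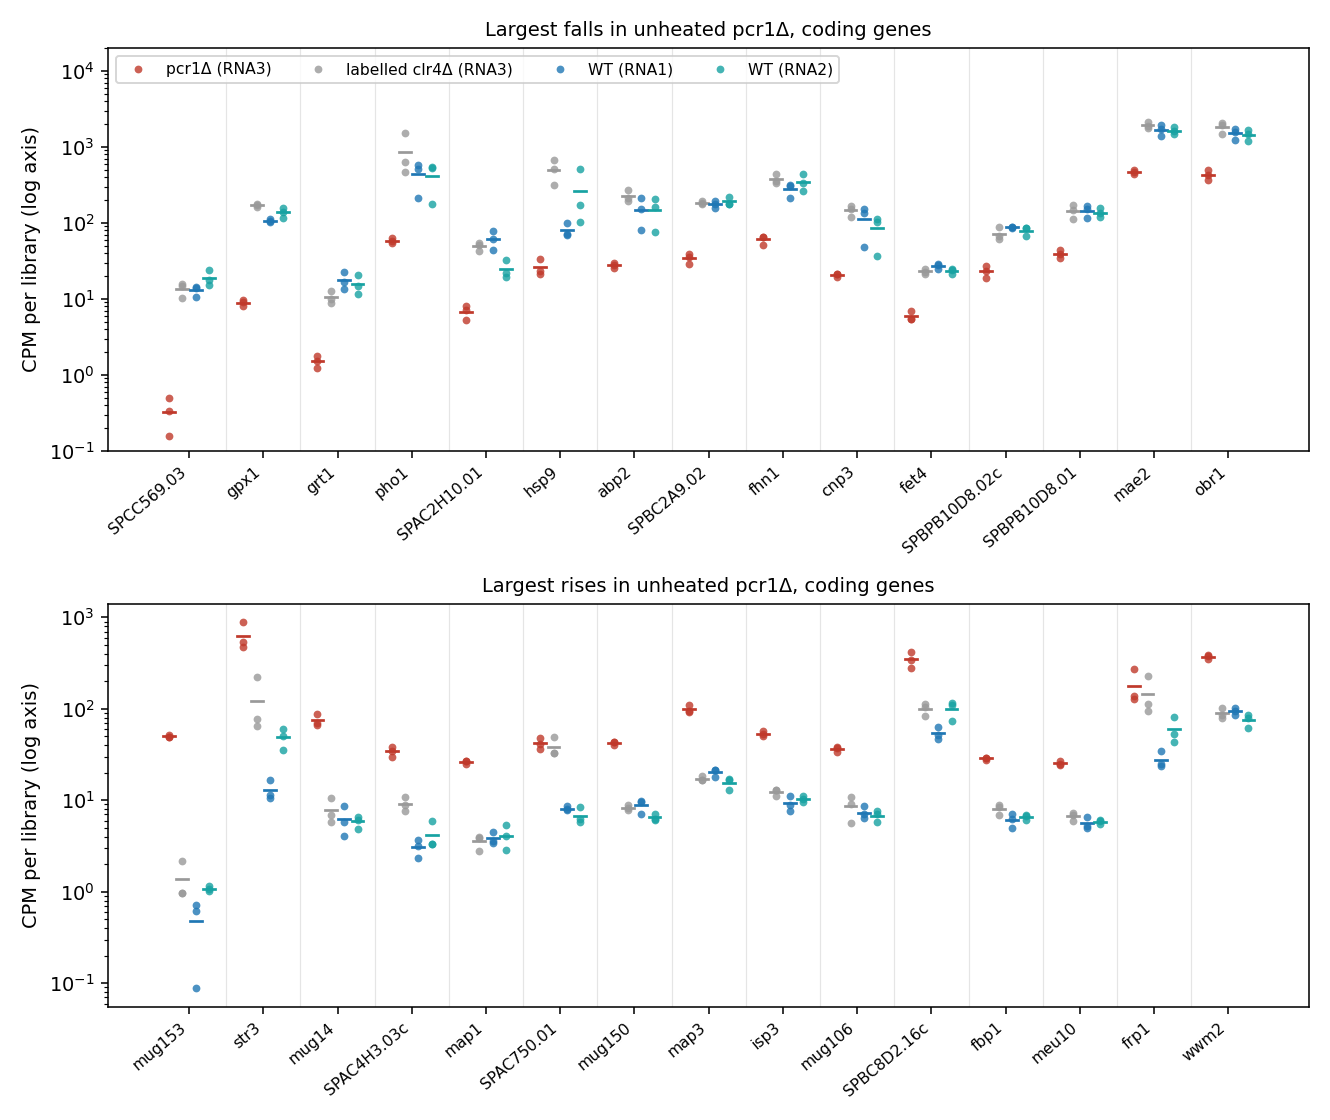
CPM per library on a log axis for the 15 coding genes with the largest falls (upper) and the 15 with the largest rises (lower), each with 3 pcr1Δ libraries at the left, then 3 labelled clr4Δ, 3 WT of RNA1 and 3 WT of RNA2; short bars are group means. Genes were chosen so that no pcr1Δ library overlaps a WT library. In SPAC750.01 and frp1 the libraries labelled clr4Δ overlap pcr1Δ, and in str3 and SPAC4H3.03c they lie between pcr1Δ and WT.

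A run of neighbouring genes near the left end of chromosome II was lower. Of 26 genes tested within 100 kb of that end, 16 were lower in pcr1Δ, all 16 of them in all 3 comparisons, and 3 were higher, with a median log2 fold change of -1.67. Within the same distance of the other ends, lower calls were 6 of 25 genes (left end of chromosome I), 9 of 27 (right end of I), 7 of 23 (right end of II), 8 of 40 (left end of III) and 13 of 42 (right end of III); over all genes 18.9% were lower. The region and distance were chosen after the values were seen. grt1 (SPBPB8B6.04c, chromosome II, 47369 to 51220, minus strand), which encodes a transcription factor, had 1.504, 1.23 and 1.79 CPM in pcr1Δ, against 13.3, 16.8 and 22.8 CPM in RNA1 and 11.4, 14.7 and 20.5 CPM in RNA2. It had the largest fall in the run among genes with 10 CPM or more on average (log2 -3.44 ± 0.30, adjusted p = 3.82e-11), and 3 genes that adjoin it, SPBPB8B6.02c (-3.86), fah1 (-3.07) and SPNCRNA.1301 (-3.71), were lower too. These 3 had few counts, 7, 9 and 9 over the pcr1Δ libraries, against 93, 70 and 116 in RNA1 and 89, 62 and 91 in RNA2. The arylsulfatase gene SPBPB10D8.02c and the cysteine transporter gene SPBPB10D8.01 lie further in and overlap at their 3′ ends, and their log2 fold changes were -1.84 and -1.84. Against the libraries labelled atf1Δ these genes stood at -0.17 and -0.14, while grt1 stood at -1.31 and SPNCRNA.1301 at -2.48. Part of the run was thus about as low in those libraries as in pcr1Δ. The enolase gene eno102, also in the run, had 0, 1 and 0 counts in the pcr1Δ libraries, against 30, 74 and 48 in WT of RNA1 and 60, 31 and 18 in WT of RNA2. Near the right end of the same chromosome, nrg1 had 6, 2 and 3 counts in pcr1Δ, against 55, 167 and 119 in RNA1 and 215, 85 and 18 in RNA2. Both averaged under 10 CPM, and both were lower in all 3 comparisons (edgeR adjusted p against both WT series = 1.56e-07 for eno102 and 2.51e-05 for nrg1). The libraries labelled clr4Δ stood above WT for both, which widens the third comparison. Their mean was 15.5 CPM for eno102, against 4.69 in RNA1 and 3.7 in RNA2, and 33.2 CPM for nrg1, against 10.6 and 10.8. fah1 and SPNCRNA.1301 each overlap grt1 on the opposite strand, and whether reads crossed strands there was not tested.

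Among the genes that rose, mug153 was first by size. mug153 (SPACUNK4.19, chromosome I, 2874956 to 2877487, plus strand), one of a set of genes named for raised expression in meiosis, had 51.5, 49.7 and 48.8 CPM in pcr1Δ, against 0.0880, 0.618 and 0.713 CPM in WT of RNA1 and 1.02, 1.14 and 1.07 CPM in WT of RNA2. It was at most 1.14 CPM in WT, and the fitted change was 69.5-fold (log2 6.12 ± 0.24, adjusted p = 3.11e-19); it overlaps tps3 on the same strand, so the reads of each are hard to separate. mug14 (SPBC359.06, chromosome II, 128660 to 129742, plus strand), an adducin gene, had 87.9, 66.6 and 69.9 CPM in pcr1Δ, against 8.71, 5.74 and 4.08 CPM in RNA1 and 6.63, 4.89 and 6.14 CPM in RNA2. Its rise was alike against both series (3.58 and 3.66; log2 3.62 ± 0.16 together, adjusted p = 4e-18). SPAC4H3.03c, a glucan 1,4-alpha-glucosidase gene, had 30, 34.5 and 38.01 CPM in pcr1Δ, against 3.70, 3.18 and 2.34 CPM in RNA1 and 5.92, 3.33 and 3.31 CPM in RNA2 (log2 3.24 ± 0.24, adjusted p = 1.17e-12). isp3, for a protein of the spore coat, rose by 2.45, and the lncRNA SPNCRNA.606, which overlaps it on the opposite strand, by 2.56. Whether reads were counted for the wrong gene of this pair was not tested. mug150 (2.48) overlaps srk1, meu10 (2.15) overlaps cbf12 and mug106 (2.38) overlaps gpm1, and this was not tested for them either. wwm2 (2.13) and SPBC8D2.16c (2.24) also rose, and SPNCRNA.935 (2.35) and SPNCRNA.1252 (2.25) rose among non-coding RNAs. The aldo/keto reductase gene SPAC750.01 rose by 2.49 against WT, but it differed little from the libraries labelled clr4Δ (0.12, adjusted p = 0.769). Below 10 CPM on average, bit2, named after its values were seen, had 150, 136 and 160 counts in pcr1Δ, against 9, 3 and 6 in RNA1 and 2, 5 and 6 in RNA2.

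Several genes of mating and sexual development were higher without heat. Of 27 tested members of the mating list, 10 rose (37%) and 2 fell (7.41%), against 18.6% and 18.9% of all genes. Of the 10, 9 rose in all 3 comparisons (33.3% of the list, against 8.23% of all genes); the median log2 fold change was 0.22, against -0.002 over all genes, and medians against RNA1 and RNA2 were 0.40 and 0.17. The M-factor receptor gene map3 (SPAC3F10.10c, chromosome I, 2833231 to 2836168, minus strand), by which P cells sense the pheromone of M cells, had 110.2, 91.2 and 95.8 CPM in pcr1Δ, against 21.3, 18.1 and 21.7 CPM in RNA1 and 16.6, 13 and 17.1 CPM in RNA2. The groups were well apart (log2 2.47 ± 0.11, adjusted p = 5.02e-18). map1 (SPAC11E3.06, chromosome I, 5292648 to 5294751, plus strand), the MADS-box factor that switches on P-specific genes, had 24.7, 27.04 and 26.9 CPM in pcr1Δ, against 3.43, 3.62 and 4.48 CPM in RNA1 and 4.08, 5.41 and 2.83 CPM in RNA2. It rose by 2.72 ± 0.18 (adjusted p = 4.96e-14), while map2, map4 and sxa1, the other members of the P-type list of 5, were not called (median 0.08). ste11 (SPBC32C12.02, chromosome II, 3983312 to 3987400, plus strand), the HMG-box factor that starts sexual development, had 108, 88.9 and 92.2 CPM in pcr1Δ, against 24.6, 39.4 and 42.1 CPM in RNA1 and 55.7, 46.2 and 48.9 CPM in RNA2. All mutant values were higher (log2 1.19 ± 0.16, adjusted p = 2.84e-07). The meiosis gene mei2 (1.34), the pheromone pathway genes ste4 (0.67) and byr2 (0.61) and the pheromone MAP kinase gene spk1 (1.13) rose too. Of 7 M-type genes tested, sxa2 rose (0.39) and 1 fell (median 0.01, and -0.04 with library totals). The one that fell, mfm3, at most 1.53 CPM anywhere, was called lower (-1.43 ± 0.55, adjusted p = 0.0364), a call that several alternatives lost.

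Several iron uptake genes were higher in pcr1Δ than in WT, but few of them were higher than in the libraries labelled clr4Δ of the same series. Of 16 tested members of the list of iron and copper uptake and its regulators, 9 rose (56.2%, against 18.6% of all genes) and 4 fell (25%, against 18.9%), with a median of 0.53. The 9 include ctr4 (0.45) and ctr5 (0.50) of copper uptake, and php4, a regulator. In all 3 comparisons, however, str3 alone rose and pcl1 alone fell (-0.85), the gene of a vacuolar iron transporter. str3 (SPAC1F8.03c, chromosome I, 88201 to 90300, minus strand), a siderophore transporter gene, had 885, 534 and 468 CPM in pcr1Δ, against 16.8, 10.5 and 11.4 CPM in RNA1 and 50.8, 35.5 and 60.3 CPM in RNA2. The mutant stood above WT in all libraries (log2 4.64 ± 0.35, adjusted p = 2.23e-12), and the libraries labelled clr4Δ, at 65.2, 76.7 and 224 CPM, lay above all WT libraries as well. The ferric reductase gene frp1 had 269, 138 and 129 CPM in pcr1Δ, 93.7, 113 and 228 CPM in the libraries labelled clr4Δ, 34.4, 24.7 and 23.7 CPM in RNA1 and 53.4, 43.5 and 81.7 CPM in RNA2. Against WT it rose by 2.14 ± 0.29 (adjusted p = 4.58e-07), while against the libraries labelled clr4Δ the difference was 0.30 (adjusted p = 0.503). str1 (1.74 against WT, 0.52 against the libraries labelled clr4Δ) and frp2 (1.93 and 0.47) showed the same pattern, and pcr1Δ replicate 1 was the highest library for all 4 genes. php4, which encodes the repressor of iron-using genes, rose by 0.57, and fep1, the gene of the repressor of iron uptake, fell by 0.40. The part of the series in these values was not tested.

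Of 21 tested members of the list of glucose-repressed and hexose transport genes, 9 rose (42.9%) and 6 fell (28.6%), against 18.6% and 18.9% of all genes (median 0.20). All 15 were also called against each WT series, and 5 of the 9 and all 6 in all 3 comparisons. fbp1 (SPBC1198.14c, chromosome II, 197660 to 199474, minus strand), the gluconeogenic fructose bisphosphatase, had 29.2, 29.2 and 27.6 CPM in pcr1Δ, against 7.04, 4.95 and 6.21 CPM in RNA1 and 6.83, 6.14 and 6.72 CPM in RNA2. Its rise of 2.18 ± 0.10 (adjusted p = 4.79e-18) was of like size against each series (2.24 and 2.12). Among hexose transporter genes, ght5, for the high-affinity glucose transporter, had 301, 322 and 316 CPM in pcr1Δ, against 77.4, 72.3 and 60.5 CPM in RNA1 and 93.2, 71.1 and 105 CPM in RNA2 (log2 1.98 ± 0.16, adjusted p = 5.94e-12). ght3 (1.68), ght7 (1.68), ght1 (1.04) and ght4 (0.88) rose with it, whereas ght8 fell (-0.48). The invertase gene inv1 rose by 2.02, but it stood at 0.16 against the libraries labelled clr4Δ (adjusted p = 0.493). On the falling side were mae2 and mae1, given above, the galactokinase gene gal1 (-1.499) and the alcohol dehydrogenase gene adh4 (-0.62).

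The stress genes that Atf1 is known to serve did not move as a block. Of 30 tested members of the Atf1-dependent core stress list, 11 rose (36.7%) and 7 fell (23.3%), against 18.6% and 18.9% of all genes; 6 of each held in all 3 comparisons, the median was 0.33, and it was 0.54 against RNA1, 0.22 against RNA2 and -0.39 against the libraries labelled clr4Δ. gpx1, hsp9, gpd1, ctt1, rds1 (-1.55) and sro1 (-0.97) were the members that fell in all 3 comparisons, and zym1, a metallothionein gene, was called lower at -0.50 (adjusted p = 0.047), a call lost under several alternatives. fbp1, wwm3 (2.27), srx1, ntp1, srk1 and atf1 itself rose in all 3. srx1, the sulfiredoxin gene that restores oxidised peroxiredoxin, had 96.5, 67.6 and 68.3 CPM in pcr1Δ, against 19.2, 18.99 and 18.9 CPM in RNA1 and 34.6, 28.4 and 25.9 CPM in RNA2. The groups were apart (log2 1.71 ± 0.16, adjusted p = 2.27e-10), and tpx1, which encodes the peroxiredoxin that srx1 serves, rose by 1.54. srk1, a kinase gene of the Sty1 pathway, had 179.6, 175 and 182 CPM in pcr1Δ, against 109.8, 84.1 and 83.03 CPM in RNA1 and 70.7, 70.3 and 75.4 CPM in RNA2, a rise of 1.13 ± 0.17 (edgeR adjusted p = 1.72e-06). The gene overlaps mug150, which lies on the opposite strand. ntp1, for the neutral trehalase, rose by 1.17 ± 0.12 (adjusted p = 9.94e-10), and tps1, for trehalose synthesis, by 0.78; tps1 overlapped WT of RNA2 (0.19) and was not called against it. hsp16, tpp1 and gld1 were not called.

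In the Sty1 kinase list of 19 genes 5 rose (26.3%) and 7 fell (36.8%), against 18.6% and 18.9% of all genes (median -0.11); 2 rose and 4 fell in all 3 comparisons, and with library totals 3 were higher and 8 lower. The phosphatase gene pyp1, which shuts Sty1 off, had 29.4, 27.6 and 25.4 CPM in pcr1Δ, against 47, 58.4 and 50.1 CPM in RNA1 and 74.4, 58.2 and 59.8 CPM in RNA2 (log2 -1.07 ± 0.17, adjusted p = 4.11e-06). Upstream of the kinase, wis1 (-0.55), mcs4 (-0.46) and win1 (-0.33) fell a little, and sty1 itself was not called (-0.18). The other phosphatase gene of the loop, pyp2, rose by 0.78. Among 19 genes for bZIP and other stress factors, pcr1 and atf1 included, 3 rose (15.8%) and 5 fell (26.3%), 1 and 3 of them in all 3 comparisons (median -0.13). hsr1 had 59.2, 66.3 and 58.5 CPM in pcr1Δ, against 109.7, 197 and 259 CPM in RNA1 and 262, 201 and 111 CPM in RNA2, with no overlap (log2 -1.63 ± 0.30, adjusted p = 6.64e-05). pap1, the oxidative stress factor gene, rose by 0.24, and hsf1, the heat shock factor gene, was not called (-0.02).

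Of 26 chaperone genes tested, 11 rose (42.3%, against 18.6% of all genes) and 1 (hsp9) fell, 4 rose in all 3 comparisons, and the median was 0.31 (0.47 against RNA1, 0.02 against RNA2 and -0.06 against the libraries labelled clr4Δ); 21 of the 26 were themselves called between the WT series. ssa1, for a Hsp70 chaperone, had 247, 214 and 233 CPM in pcr1Δ, against 27.6, 54.2 and 29.6 CPM in RNA1 and 212, 169.6 and 127 CPM in RNA2. The difference was 2.64 against RNA1 and 0.45 against RNA2, and -1.15 against the libraries labelled clr4Δ. The Hsp90 co-chaperone gene sti1 had 1051, 1164 and 1169 CPM in pcr1Δ, against 527, 503 and 361 CPM in RNA1 and 978, 826 and 780.3 CPM in RNA2. It rose in all 3 comparisons (log2 0.84 ± 0.10, adjusted p = 4.26e-08), as did ssc1 (0.57), wos2 (0.57) and hsp20 (0.34). Changes of proteasome subunit genes were small: 18 of 33 were called higher (54.5%, against 18.6% of all genes), 8 of them in all 3 comparisons, and 1, rpn11, lower, with a median of 0.18, and pam1 (0.47 ± 0.07, adjusted p = 2.54e-06) and pup1 (0.40 ± 0.06, adjusted p = 2.16e-06) are examples; 12 were called higher when libraries were scaled by their totals alone.

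**Figure D3:**
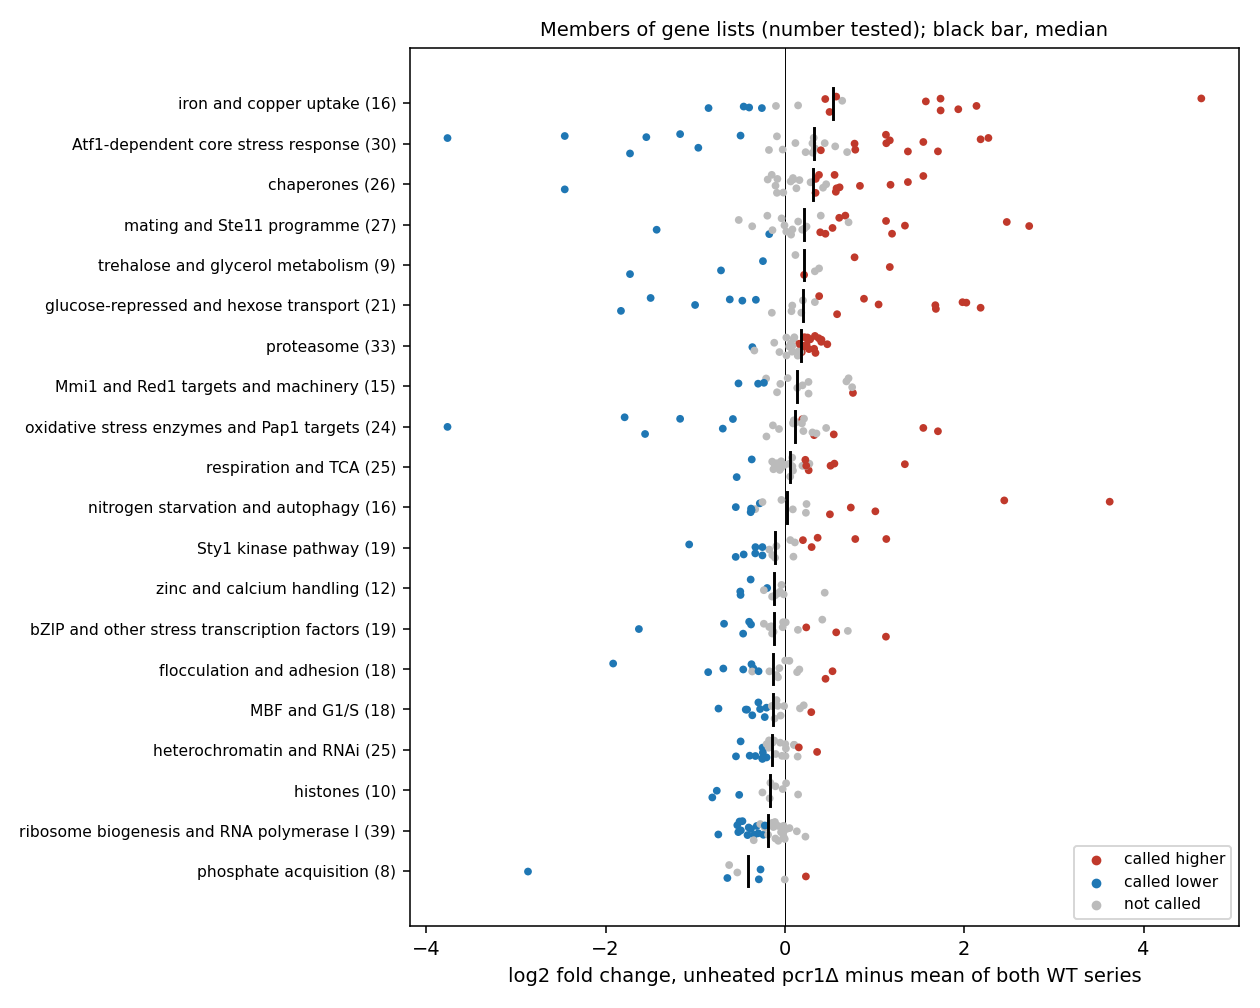
Log2 fold change of unheated pcr1Δ against the mean of both WT series for each tested member of 20 gene lists, ordered by the median (black bar), with the number tested in brackets. Red members were called higher, blue lower and grey neither; points are jittered vertically. The iron and copper list is at the top (median 0.53) and the phosphate list at the bottom (median -0.41), and the Atf1-dependent, glucose and oxidative lists hold large changes in each direction.

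Several lists linked to growth and the cell cycle held small falls. Of 39 tested genes for ribosome assembly and RNA polymerase I, 14 fell (35.9%, against 18.9% of all genes) and 0 rose (median -0.19). In all 3 comparisons 5 fell, and the median was -0.26 against RNA1, -0.10 against RNA2 and -0.04 against the libraries labelled clr4Δ. utp14, for a part of the small-subunit processome, had 144, 151 and 157 CPM in pcr1Δ, against 238, 254 and 249.7 CPM in RNA1 and 252, 274 and 248 CPM in RNA2 (log2 -0.74 ± 0.09, adjusted p = 7.23e-08). rrn3 (-0.52), a factor for RNA polymerase I, and rrp12 (-0.53) fell as well. In the MBF list of G1/S genes 8 of 18 fell (44.4%, against 18.9% of all genes) and 1 rose (0 with library totals; median -0.14). Of the 8, 3 fell against each WT series by itself, and in all 3 comparisons the cyclin gene cig2 alone fell (-0.74 ± 0.11, adjusted p = 1.55e-06). Of 10 histone genes 3 fell (30%, against 18.9% of all genes), 2 of them in all 3 comparisons (20%, against 8.38%), with a median of -0.17. Among the 3 were the H3 gene hht3 (-0.76) and the H4 gene hhf3 (-0.81), which overlap on opposite strands. In the heterochromatin list 9 of 25 fell (36%, against 18.9% of all genes), 4 of them in all 3 comparisons, and 2 rose, 1 with library totals (median -0.14): swi6, for the HP1 protein that binds methylated histone H3, had 71.4, 75.8 and 80.9 CPM in pcr1Δ, against 99.5, 105 and 112 CPM in RNA1 and 114, 133 and 105 CPM in RNA2 (log2 -0.55 ± 0.10, adjusted p = 6.1e-05). chp2 (-0.49) fell with it, and the acetyltransferase gene mst2 rose (0.36).

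In the remaining lists changes went both ways or were few. Shares in brackets compare with 18.6% higher and 18.9% lower over all genes. Respiration and TCA genes (25 tested) had 6 higher (24%) and 2 lower (8%) members (median 0.06). Among the higher was the malate dehydrogenase gene mdh1 with 475, 460.3 and 462 CPM in pcr1Δ, against 201, 185 and 175 CPM in RNA1 and 184, 203 and 158 CPM in RNA2 (log2 1.34 ± 0.10, adjusted p = 3.33e-12). Nitrogen starvation genes (16 tested) had 5 higher (31.2%), led by mug14 and isp3, and 5 lower (31.2%), the lowest being fnx2 (-0.55). The median was 0.02, and -0.03 with library totals. The amino acid permease genes per1 (1.01) and aat1 (0.73) rose. Flocculation and adhesion genes (18 tested) had 2 higher (11.1%) and 7 lower (38.9%) members (median -0.14): the adhesin genes pfl9 (-1.92 ± 0.23, adjusted p = 5.02e-08) and pfl3 (-0.86 ± 0.11, adjusted p = 3.32e-07) fell in all 3 comparisons. The phosphate list (8 tested) had 1 higher (12.5%) and 4 lower (50%) members, 0 and 6 with library totals (median -0.41). Of those that fell, pho1 came first and the polyphosphate synthase gene vtc4 (-0.64) next, while the transporter gene pho84 (-0.53) was not called. Zinc and calcium genes (12 tested) had 4 lower (33.3%) and 0 higher members (median -0.13), of which vcx1 (-0.50) fell in all 3 comparisons. In the oxidative list (24 tested) 5 rose (20.8%) and 6 fell (25%), near the 18.6% and 18.9% of all genes, and with library totals 3 were higher (median 0.11). In the trehalose and glycerol list (9 tested) 3 rose and 3 fell (33.3% each, median 0.21). In the Mmi1 list of meiotic RNA removal (15 tested) 1 rose (6.67%) and 3 fell (20%, median 0.14). Several genes stand in more than 1 list.

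The genes beside pcr1 on chromosome I changed little. Of the 5 on each side, SPAC1F7.11c, annotated as a transcription factor, fell (-0.45 ± 0.11, adjusted p = 0.00112) and iba57, for iron-sulfur cluster assembly, rose (0.25 ± 0.07, adjusted p = 0.00262). aca1, the next gene on one side, stood at -0.42 (adjusted p = 0.0529), and the other 7 were not called. Of the marker genes of the strain background, ura4 fell (-0.28 ± 0.08, adjusted p = 0.00745), ade6 was called higher at 0.21 (adjusted p = 0.0473), a call lost under several alternatives, and leu1 was not called (0.08). Counts of ura4 and ade6 do not separate a reporter from any other copy.

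Few genes differed between pcr1Δ and the libraries labelled atf1Δ of the same series without heat. Over all 6172 genes 87 were called between pcr1Δ and these libraries (1.41%), and 8 of the 121 named genes were. Of the 36 largest changes described above, 3 were called, a larger share than over all genes. For the 36 the difference ran from -1.31 to 0.56 on the log2 scale. obr1 stood at -1.24 (adjusted p = 0.00021), map3 at -0.76 (adjusted p = 0.000329) and SPAC4H3.03c at -0.99 (adjusted p = 0.0112), each lower in pcr1Δ. gpx1 had 9.02, 8.03 and 9.68 CPM in pcr1Δ and 7.96, 10.9 and 9.09 CPM in the libraries labelled atf1Δ, against 104, 105 and 112 CPM and 158, 139.6 and 117 CPM in the WT series. mug153 had 51.5, 49.7 and 48.8 CPM in pcr1Δ and 55.1, 63.6 and 56.1 CPM in the libraries labelled atf1Δ, with the difference at -0.22. The comparisons of each mutant with WT share the WT libraries. Outside the 36, atf1 was higher in pcr1Δ by 1.503 (adjusted p = 5.26e-10), with 415, 336 and 341 CPM in pcr1Δ and 143, 120.5 and 122 CPM in the libraries labelled atf1Δ, where its transcript was -0.38 against the mean of both WT series (adjusted p = 0.00611). Those atf1Δ values lay within the range of WT of RNA1 (118, 127 and 146 CPM) and below WT of RNA2 (206, 223 and 212 CPM). The gene's own count thus does not bear out the atf1Δ label. ssa1 was lower in pcr1Δ than in the libraries labelled atf1Δ (-1.40, adjusted p = 0.000679), ght5 was higher (0.84, adjusted p = 0.00975) and per1 lower (-0.60, adjusted p = 0.0176). The heat shock gene hsp16, not called against WT, was lower than in the libraries labelled atf1Δ (-3.04, adjusted p = 5.34e-06); it was named after its values were seen.

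**Figure D4:**
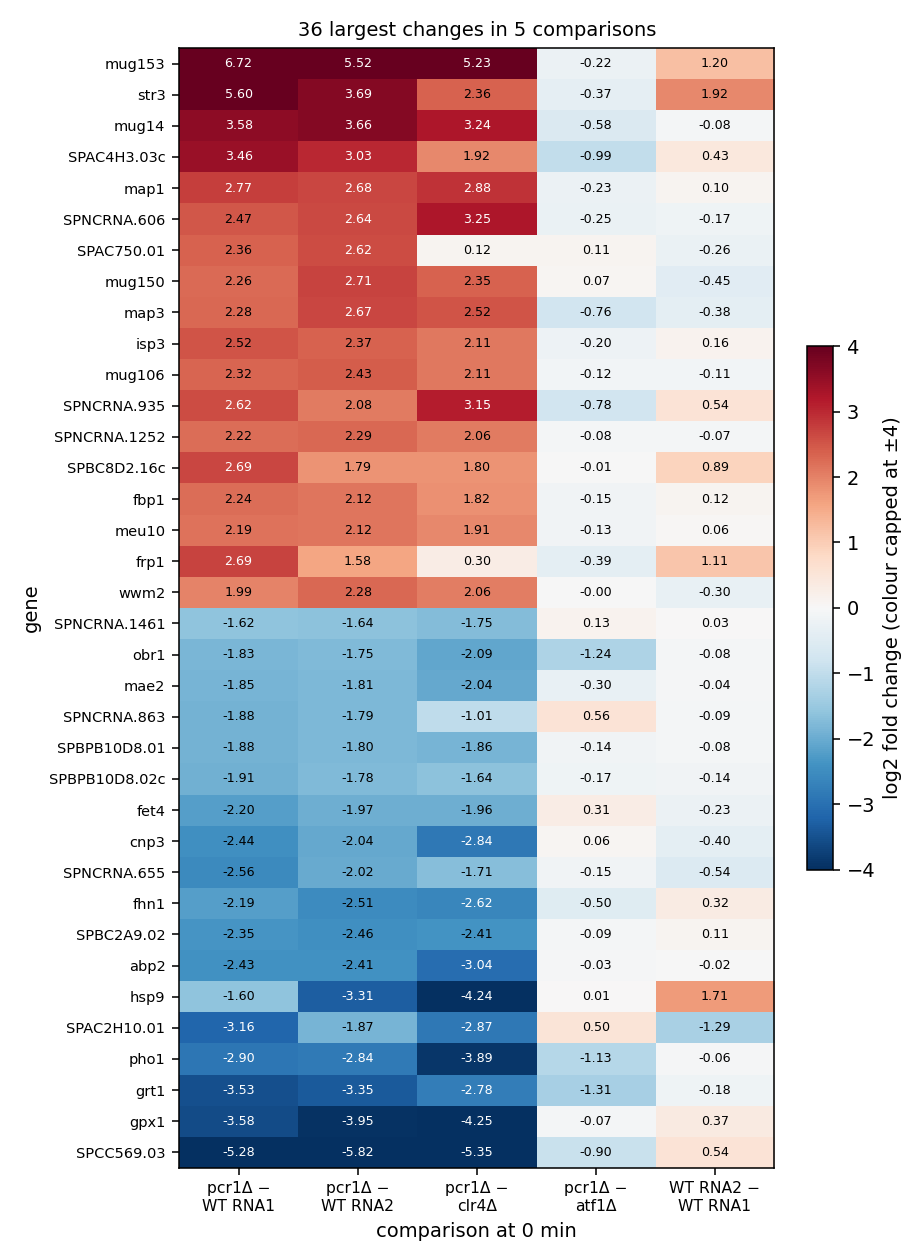
Log2 fold changes of the 36 largest changes in 5 comparisons of unheated libraries: pcr1Δ minus WT of RNA1, minus WT of RNA2, minus the libraries labelled clr4Δ and minus those labelled atf1Δ, and WT of RNA2 minus WT of RNA1; colour is capped at 4 in either direction. The first 2 columns have the same sign in every row by the rule that chose the genes. In the third, 34 of the 36 genes were called in that direction, and frp1 and SPAC750.01 were not. The column for the libraries labelled atf1Δ stays between -1.31 and 0.56, and the last column shows that hsp9, str3, SPAC2H10.01, mug153 and frp1 also differed by more than 1 between the WT series. The first 4 columns share the pcr1Δ libraries.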

How the data were processed

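Messenger RNA was sequenced in 39 libraries, and the authors deposited raw read counts per gene for each library, in the format STAR writes. STAR, deepTools, Trimmomatic 0.33, bedtools 2.17.0 and Bowtie 0.12.9 are named with build ASM294v2 per the submitters' processing notes, without their roles, and which strand was counted is not given in the sources used here. Strands were counted apart where a gene lies inside another on the opposite strand. SPNCRNA.1302, inside eno102, had 237, 236 and 247 counts in pcr1Δ, where eno102 had 0, 1 and 0. SPNCRNA.1307, inside SPBPB10D8.02c, stood at 0.22 on the log2 scale, against -1.845 for that gene. Groups came from the labels. All 39 libraries were fitted together in edgeR 4.0.16 (R 4.3.3, limma 3.58.1) with TMM factors and filterByExpr, which kept 6172 of 7015 genes; the quasi-likelihood test with Benjamini-Hochberg adjustment gave each adjusted p. A standard error is the log2 fold change divided by the root of F. CPM values (counts scaled by library size and TMM factor) were computed from the deposited counts of genes. Reads in no gene (1.19 to 1.79%) or in several genes (0.709 to 1.05%) stayed out. Positions are of build ASM294v2, and names and promoter windows come from RefSeq (ASM294v3). Counts were also simulated with the same mean of a gene in all groups, so without any difference between series, and only genes of at least 10 CPM were changed. On these counts the test called 49 of 50 genes changed 1.5-fold and made 7 false calls among 6172 genes. The real WT series differ from each other, so these false calls do not measure the error of the calls above.

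Named genes are pcr1, atf1 and clr4, the 15 largest rises and falls of called coding genes and 3 of non-coding genes with at least 10 CPM on average and no overlap between pcr1Δ and WT, in each list the 4 genes of smallest p, and 5 genes on each side of pcr1. Members and lists were chosen with earlier results of these data known. Alternatives were DESeq2 1.42.0 (size factors and test), library totals, no filter, fewer libraries in the fit, the replicate number as a block, no ribosomal RNA and mitochondrial genes, and each library left out in turn.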

Additional observations from a re-analysis of the deposited data

Results flagged for a closer look

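Of the 121 named genes, 29 (against 7.19% of all genes) had a difference between pcr1Δ and WT that was not the same at 0 min as after 5 min at 37.5 °C, and in all 29 it was lower after heat. That direction was general: over all genes 395 of 444 such changes were downward and 49 upward, and without RNA2 WT 5 min replicate 3 the counts were 408 and 162. Most named genes were chosen by their difference at 0 min, which is subtracted in this change. The number 29, and the smaller difference after heat of genes that rose, are thus partly tied to that choice. The pcr1Δ libraries were of RNA3 and the WT libraries of RNA1 and RNA2 at both times. The peroxidase gene gpx1, already low without heat, differed from WT by -6.20 ± 0.21 after 5 min and by -3.77 ± 0.19 before heat (change -2.435, edgeR interaction test, adjusted p = 9.09e-09). The sulfiredoxin gene srx1 differed from WT by -0.70 ± 0.16 after 5 min and by 1.71 ± 0.16 before heat (change -2.407, edgeR interaction test, adjusted p = 1.45e-09). The kinase gene srk1 differed from WT by -1.12 ± 0.18 after 5 min and by 1.13 ± 0.17 before heat (change -2.253, edgeR interaction test, adjusted p = 1.64e-08). The direction against WT was thus opposite at the 2 times for srx1 and srk1, each called at both times.

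The trehalose genes ntp1 (-1.818) and tps1 (-1.413) also lay above WT before heat and below it after 5 min. Genes above WT at both times, by less after heat, were mug153 (-3.963), wwm2 (-1.046), mug150 (-0.933), mug14 (-0.825), inv1 (-0.817), mug106 (-0.708), isp3 (-0.667), fbp1 (-0.477) and atf1 (-0.856). Genes below WT at both times, by more after heat, were gpd1 (-1.898), pyp1 (-1.92), fhn1 (-1.816), hsp9 (-1.705), grx1 (-0.917), SPBC2A9.02 (-0.77), hhf3 (-0.742), hht3 (-0.62), zym1 (-1.24), pmc1 (-1.077) and pcr1 (-1.925). The last group of genes lay above WT before heat and was not called against WT after 5 min, SPAC4H3.03c (-3.508), ssa1 (-1.891), psi1 (-1.41) and sti1 (-0.825). Values in brackets are the change of the log2 difference. No explanation of these changes was tested.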

How the results depend on the processing

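The 2311 genes called against both WT series became 2087 to 2459 under other settings and 1827 to 2237 with a library left out. Called genes were 1978 to 2341 against RNA1 alone (2152), 2083 to 2467 against RNA2 alone (2283), 1044 to 1638 between the WT series (1457), 2360 to 2835 against the libraries labelled clr4Δ (2678) and 366 to 523 for the change with heat (444). With a library left out these counts were 1745 to 1925, 1829 to 2033, 1099 to 1232, 2111 to 2586 and 337 to 570. Against RNA2 alone the share of higher calls was 36.3% with library totals and 47.4% with TMM factors. Against the libraries labelled atf1Δ the 87 calls became 145 when only the compared groups were fitted, and 41 to 82 with a library left out, the lowest without pcr1Δ replicate 3; the cause was not tested. Of 2055 recomputed values of named genes 11 changed sign, all of uncalled neighbours of pcr1. SPAC1F7.10 stood at -0.029 with library totals and at -0.052 to 0.106 with a library left out, prl13 at -0.612 to 0.054 and yak3 at -0.118 to 0.077 with a library left out. Calls were lost in 50 values and gained in 11, most often for zym1, ade6, aca1, csk1 and mfm3. The replicate number as a block gave 2459 calls against both WT series. Pairing of same-numbered libraries was weak and uneven. The deviations of 9 pairs correlated at -0.317 to 0.162, 3 of them over 0.1. In 5 of the 9, all 3 pairs of pcr1Δ with RNA1 among them, the correlation was highest for the shared number. Without RNA2 WT 5 min replicate 3 the change with heat was called in 570 genes, 162 of them upward, against 49 of 444. Genes of few counts, such as eno102, have folds with wide error.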
